A study of Sus scrofa with 6 samples.

Results

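KCNJ1, NHERF4 and SCIN are 3 genes of pig chromosome 9 that were grouped because each was much lower in parthenogenetic than in control embryos, so their fall in that comparison is how they were chosen and is described only, with nothing supported by a test of it. They were found by matching the Ensembl pig identifiers of the count table to these symbols (ENSSSCG00000015236, ENSSSCG00000027710 and ENSSSCG00000015353), and they make up 3 of the 1780 genes analysed, all 3 of them among the 807 genes with enough reads to test. RNA-seq was made from whole pig embryos, 3 controls and 3 parthenotes, all at embryonic day 21 and all crosses of Landrace x Yorkshire x Duroc. The controls are labelled only as untreated. The parthenotes grew from oocytes that were stimulated electrically, with no sperm, and moved into the oviducts of 2 surrogate gilts, so that every chromosome was of maternal origin. How the controls were conceived is not spelled out, although the deposited counts name them with the prefix AI, which is not explained. Nothing in the labels says which embryos shared a dam, and p-values therefore measure the spread between these embryos only.

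KCNJ1 encodes ROMK, the inwardly rectifying potassium channel through which cells of the thick ascending limb and collecting duct return potassium to the tubule lumen. NHERF4, named PDZD3 in RefSeq and older annotation, is a scaffold with PDZ domains that sits under the apical membrane of kidney and intestinal epithelium and holds transporters and receptors there. SCIN encodes scinderin, also called adseverin, a calcium-dependent protein of the gelsolin family that severs and caps actin filaments. In a pig embryo of this age the working kidney is the mesonephros, a large transient organ with glomeruli and tubules. In whole embryos, fewer cells of a type and less RNA per cell cannot be told apart.

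Each library held 1193714 to 1484193 reads counted in the genes analysed, and the values below are CPM, counts scaled to a fixed total of those reads, after TMM scaling, a correction for library composition. The tissue label was borne out by transcripts of several embryonic tissues in both groups, including MYOG of muscle, NCAM1 of nerve and COL1A2 of mesenchyme. The leukocyte genes CD3D and CD3E had 0 and 0 to 3 reads per library, too few to test. The libraries numbered 1 stood furthest from the others of their group, with a chi-square per degree of freedom of 141 and 143 for control 1 against control 2 and 3, where control 2 and 3 differed by 6.98. For parthenote 1 the values were 61.0 and 52.8, against 21.1 between parthenote 2 and 3.

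KCNJ1 lies on chromosome 9 from 55779020 to 55812761 (Sscrofa11.1). Its reads numbered 686, 757 and 749 in the controls, in the order of replicates 1, 2 and 3, which is kept below, and 105, 98 and 138 in the parthenotes. Scaled, these were 541, 594 and 566 CPM in the controls and 80.3, 69.5 and 92.9 CPM in the parthenotes. The controls lay close together, and every parthenote was far below every control, the lowest control at 5.82 times the highest parthenote. The means were 567 ± 26.7 and 80.9 ± 11.7 CPM (SD, n = 3 each), so that parthenotes held 14.3% of the control level.

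NHERF4 spans 46401377 to 46409804 and was the least abundant of the trio in reads, with 126, 142 and 149 in the controls and 23, 27 and 44 in the parthenotes. The scaled levels were 99.3, 111 and 113 CPM in controls and 17.6, 19.1 and 29.6 CPM in parthenotes. The groups did not overlap, and parthenote 3 stood above the other two parthenotes. The group means were 108 ± 7.34 and 22.1 ± 6.54 CPM (SD, n = 3 each), with the parthenotes at 20.5% of control. The coefficient of variation was 6.81% among controls and 29.6% among parthenotes, where the gene rests on 23 to 44 reads.

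SCIN spans 82103271 to 82185254. It had 680, 613 and 526 reads in the controls, and 155, 156 and 188 in the parthenotes. In CPM the controls were at 536, 481 and 397 and the parthenotes at 119, 111 and 127. Here the controls were the more spread group, with a coefficient of variation of 14.8% against 6.71% in parthenotes. The lowest control was still 3.14 times the highest parthenote, and parthenotes held 25.2% of the control mean.

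**Figure D1:**
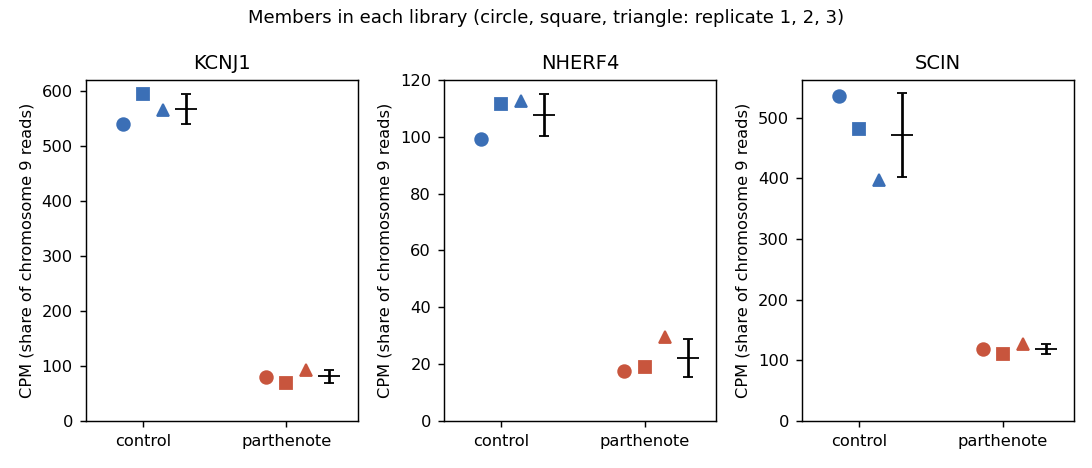
CPM of KCNJ1, NHERF4 and SCIN in each of 6 libraries, with symbols for replicates 1, 2 and 3; the dash and bar beside each group are its mean and SD (n = 3). In every panel the 3 parthenotes lie below the 3 controls, and the gap is widest for KCNJ1 (567 against 80.9 CPM).

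Fitted over all 807 genes, the log2 difference of parthenote minus control was -2.81 ± 0.14 (SE) for KCNJ1, -2.28 ± 0.23 for NHERF4 and -1.99 ± 0.15 for SCIN. Ordered from the most negative difference, they were number 5, 8 and 11 of the 807 genes. All 3 had every parthenote below every control, as did 14.3% of tested genes (13.8% had every parthenote above every control), and all 3 belonged to the 3.59% of tested genes called lower by edgeR (quasi-likelihood test, Benjamini-Hochberg adjusted p under 0.05). Calls in either direction made up 5.2%. Nothing is read from these shares, since the genes were chosen on this comparison. Without the libraries numbered 1 of both groups the differences were -2.84, -2.20 and -1.89. In the authors' deposited normalized values the control mean was 6.91, 4.80 and 3.92 times the parthenote mean for KCNJ1, NHERF4 and SCIN.

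Ratios of reads within a library need no scaling, and they are given here as a description, without a test. The ratio of KCNJ1 to SCIN reads was 1.01, 1.23 and 1.42 in the controls, and 0.677, 0.628 and 0.734 in the parthenotes. Parthenotes were thus all below the controls in this ratio, the control mean being 1.80 times theirs. The ratio of KCNJ1 to NHERF4 was 5.44, 5.33 and 5.03 in controls and 4.57, 3.63 and 3.14 in parthenotes, again without overlap. The ratio of SCIN to NHERF4 ran from 3.53 to 5.40 in controls and from 4.27 to 6.74 in parthenotes, and these ranges overlapped. KCNJ1 was thus lower relative to both SCIN and NHERF4 in every parthenote than in any control, while the ratio of SCIN to NHERF4 did not separate the groups. In parthenotes the ratios to NHERF4 rest on 23 to 44 NHERF4 reads, and their counting error was not estimated. The trio was chosen on this comparison of groups, so nothing further is read from these separations. Transcript lengths were not used here, so the levels of the genes are not ranked against each other.

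Genes of kidney and tubule other than the trio were taken from lists of tubule transporters, regulators of tubule transport, and genes of kidney structure and development. Of the 134 genes of these lists reported on, 15 were in the table and 13 were tested. Most defining genes of tubule segments, such as SLC12A1 of the thick ascending limb, UMOD and AQP2, lie on other chromosomes and were not analysed here, so a tubular source of the trio could not be checked against them. NHERF4 is also known from intestine, and SCIN from chromaffin cells. In edgeR's test ST14 and SLC37A4 fell, 2 of the 13, and 0 rose, where 3.59% of all tested genes fell and 1.61% rose. ST14 and TMPRSS4 are also on the list of epithelial genes below, so these lists are not limited to genes particular to kidney. An unadjusted p under 0.05 was found for 5 of the 13, all below 0, against 21.7% of all tested genes in either direction, and DESeq2 called 3, all lower, against 5.82% of all tested genes called lower. The median log2 difference of the 13 was -0.18, against 0.02 for all 807 genes, with 8 below 0 and 5 above. The 8 below 0 had every parthenote below every control, against 14.3% of all tested genes. KIRREL3 and TRPC6 had every parthenote above every control, against 13.8%. These counts and the median cover the reported genes only and not the lists as a whole. The lists were chosen with earlier results of these data known. Setting them beside all tested genes is therefore not an independent comparison, and no excess is read from it.

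Of the tested genes of kidney structure and development reported on, the 4 that follow did not pass in edgeR's test or in DESeq2. None had an unadjusted p under 0.05. Among all tested genes 5.2% were called by edgeR and 21.7% had an unadjusted p under 0.05. With only 4 genes, nothing is read from this lack of calls. KIRREL3 and TRPC6, which belong to the filter of the glomerulus, had log2 differences of 0.24 ± 0.16 and 0.34 ± 0.22. WNT11, a signal of the ureteric bud tips, and HGF, a growth factor for tubule epithelium, had 0.14 ± 0.12 and -0.21 ± 0.11.

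Of the 5 tested regulators reported on, 1 fell, against 3.59% of all tested genes. ST14 encodes matriptase, an epithelial surface protease that can act on the epithelial sodium channel. It was at 356, 438 and 401 CPM in controls and 149, 157 and 147 CPM in parthenotes. The groups did not overlap, and the log2 difference was -1.40 ± 0.13 (adjusted p = 1.36e-04, edgeR). Its adjusted p reached at most 0.00169 over the 16 alternatives.

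The other regulators did not pass. USP2, a deubiquitinase that acts on the sodium channel, had a log2 difference of -0.51 ± 0.13 (adjusted p = 0.0613, edgeR). Its adjusted p was 0.0427 with the replicate number as a block, 0.0129 in DESeq2 and 0.0383 without a filter on low counts. P2RY2, a nucleotide receptor, had -0.56 ± 0.24, the protease gene TMPRSS4 had -0.92 ± 0.39, and SORL1, a sorting receptor, had 0.09 ± 0.14. All parthenotes lay below all controls for USP2, P2RY2 and TMPRSS4, as for 14.3% of all tested genes, while the groups overlapped for SORL1. AVPR1B, a vasopressin receptor gene with 1 to 11 reads per library, was not tested.

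Of the 4 tested genes on the list of tubule transporters, which is not limited to genes particular to the tubule, 1 fell, against 3.59% of all tested genes. This gene was SLC37A4. It encodes the transporter that brings glucose 6-phosphate into the endoplasmic reticulum, and it was at 2811, 2347 and 2412 CPM in controls and 1988, 1462 and 1433 CPM in parthenotes. The groups did not overlap and the log2 difference was -0.63 ± 0.14 (adjusted p = 0.0321, edgeR). That call was lost without control 1, control 2, control 3, parthenote 2 or parthenote 3, with adjusted p-values of 0.0863, 0.0889, 0.0724, 0.147 and 0.130, while ST14 passed in each of those fits. Without the libraries numbered 1 of both groups SLC37A4 and ST14 passed, with adjusted p-values of 0.00201 and 0.00162 in edgeR. AQP11, an aquaporin of the proximal tubule, had a log2 difference of -0.13 ± 0.11, CLNS1A, a chloride current regulator, -0.18 ± 0.11, and KCNE3, a potassium channel subunit, 0.49 ± 0.29. None of these passed, and their 95% intervals were -0.39 to 0.13, -0.43 to 0.07 and -0.18 to 1.16. SLC26A4, the anion exchanger pendrin, had only 1 to 8 reads per library and was not tested.

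**Figure D2:**
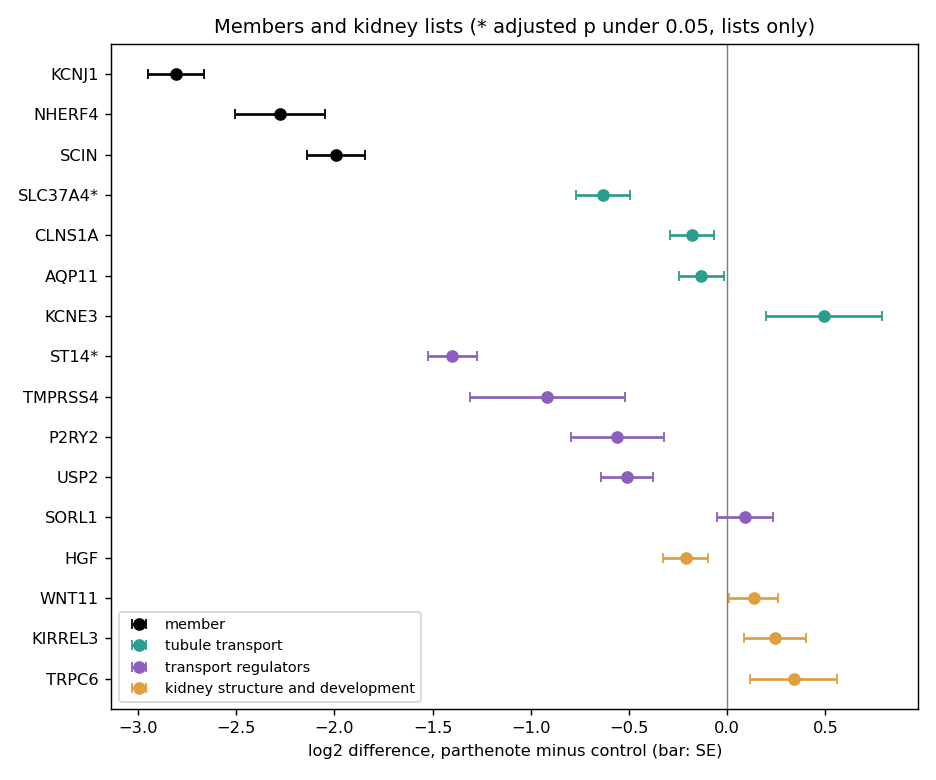
Log2 difference of parthenote minus control with its SE for KCNJ1, NHERF4 and SCIN (black) and for the 13 reported genes of the kidney lists, coloured by list, where an asterisk marks an adjusted p under 0.05. ST14 and SLC37A4 lie below 0 with an asterisk, and KCNJ1 lies furthest from 0, at -2.81.

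Each of the trio was also set against ST14, an epithelial gene that fell but is not one of the trio, within each library. The ratio of KCNJ1 to ST14 reads was 1.52, 1.36 and 1.41 in the controls and 0.538, 0.443 and 0.630 in the parthenotes. Every parthenote was below every control, the control mean being 2.66 times the parthenote mean. For SCIN the ratio to ST14 was 1.10 and 0.991 in control 2 and 3, and highest in control 1, and was 0.795, 0.706 and 0.858 in parthenotes, a gap of 1.52 times between the means, or 1.34 times without the libraries numbered 1. For NHERF4 the ratio was 0.279, 0.254 and 0.281 in controls and 0.118, 0.122 and 0.201 in parthenotes, 1.85 times apart in the means. The groups did not overlap in any of these ratios, and parthenote 3 had the highest value among parthenotes in each. For NHERF4 the parthenote ratios rest on 23 to 44 reads of that gene. These ratios use the comparison on which the trio was chosen and are given without a test.

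**Figure D3:**
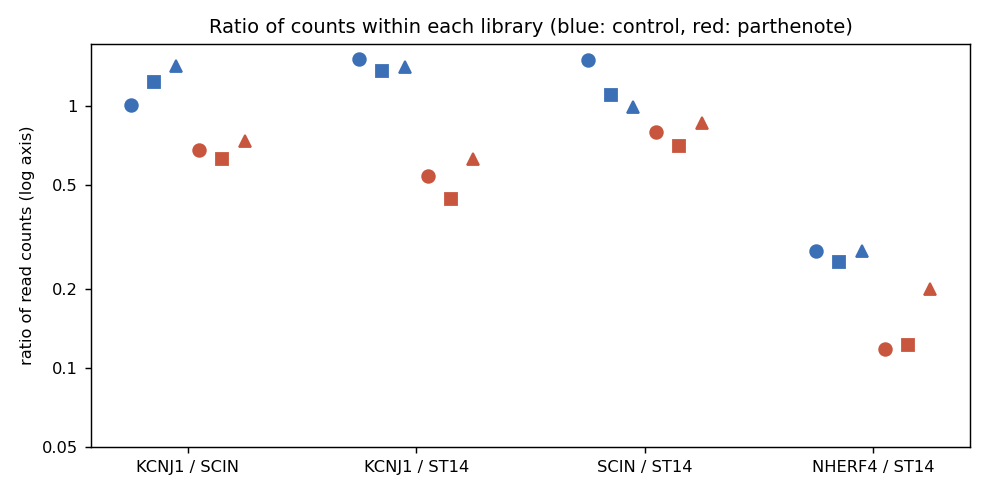
Ratio of read counts within each library, on a log axis, for KCNJ1 to SCIN and for each of the trio to ST14, with controls in blue and parthenotes in red and a symbol per replicate. The group means lie 2.66 times apart for KCNJ1 to ST14, 1.52 times for SCIN to ST14 and 1.85 times for NHERF4 to ST14, without overlap.

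By the profile over the 6 libraries (Euclidean distance of centred log2 CPM among tested genes with a symbol), the genes nearest to SCIN among those reported on were NHERF4, ST14 and KCNJ1, at distances of 0.70, 0.86 and 1.08. The nearest to NHERF4 were SCIN, KCNJ1 and ST14, at 0.70, 0.77 and 1.20. Those nearest to KCNJ1 were NHERF4, SCIN and POU2F3, at 0.77, 1.08 and 1.20. POU2F3, which encodes a POU-domain regulator of tuft and epidermal cells, had a log2 difference of -3.82 ± 0.31 (adjusted p = 5.89e-05, edgeR). With a prior count of 0.5 in place of 2 in the log values, KCNJ1 came before SCIN as the nearest to NHERF4. These distances share the same 6 libraries, and every gene named in them was called lower. They depend in large part on the size of the fall, on which the trio was chosen. Nothing is therefore read from the nearness of the trio to each other.

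Of the 4 other potassium channel genes tested and reported on, 1 fell and 0 rose, against 3.59% lower and 1.61% higher among all tested genes. The gene that fell was KCNJ5. It encodes the inward rectifier GIRK4 of heart and adrenal gland, and it was at 109, 186 and 140 CPM in the controls and 55.1, 78.0 and 70.0 CPM in the parthenotes. Every parthenote lay below every control, as for 14.3% of all tested genes, and its log2 difference was -1.10 ± 0.23 (adjusted p = 0.0261, edgeR). The call was lost without control 2 (adjusted p = 0.118), control 3 (0.0654), parthenote 1 (0.0569) or parthenote 3 (0.0760), and when libraries were scaled by their totals alone (0.0687). Without the libraries numbered 1 of both groups KCNJ5 passed (0.0297). KCNK2 and KCNH1, which encode a leak channel and a voltage-gated channel, had log2 differences of 0.21 ± 0.11 and 0.82 ± 0.30. Both had every parthenote above every control, as did 13.8% of all tested genes. KCNH1 had an unadjusted p of 0.0236 (edgeR). With KCNE3, none of these 3 passed. The ratio of KCNJ1 to KCNJ5 reads was 4.97, 3.19 and 4.05 in controls and 1.46, 0.891 and 1.33 in parthenotes.

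Only genes with a symbol and a RefSeq position on chromosome 9, 687 of the 1780, could be counted as neighbours. A gene without a position may lie closer. Among those counted and reported on, KCNJ5 is also the nearest tested gene on the higher-coordinate side of KCNJ1. Their annotated spans are 24.0 kb apart. FLI1, an ETS transcription factor gene, is the nearest on the lower-coordinate side, at -29.2 kb. Its log2 difference was -0.16 ± 0.09 (adjusted p = 0.320, edgeR). Of the 9 tested genes so counted within 1 Mb of KCNJ1, 1 fell, KCNJ5, and 0 rose. Among all tested genes 3.59% were lower and 1.61% higher. The median log2 difference of the 9 was -0.08.

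Around NHERF4, 37 genes reported on lay within 1 Mb and 29 were tested, of which 2 fell, SLC37A4 and POU2F3, and 0 rose, against the same 3.59% and 1.61% over all tested genes. They lay at -147 kb and 967 kb from NHERF4. The nearest of the 29 on the lower side was NLRX1, a mitochondrial member of the NOD-like receptor family, 624 bp away. On the higher side it was CBL, a ubiquitin ligase gene, 7.13 kb away. NLRX1 had a log2 difference of -0.22 ± 0.18 and CBL one of 0.39 ± 0.24, and neither passed (adjusted p = 0.515 and 0.402, edgeR). The median of the 29 was 0.04. SLC37A4 lost its call when single libraries were left out, as given above, and with the replicate number as a block USP2 passed also.

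The 3 tested genes reported on within 1 Mb of SCIN gave 0 calls in edgeR's test, 0 in DESeq2 and 0 with an unadjusted p under 0.05. Among all tested genes 5.2% were called by edgeR and 21.7% had an unadjusted p under 0.05. VWDE, at -116 kb, had a log2 difference of 0.18 ± 0.15, and the 3 values ran from -0.10 to 0.18. None of the trio lies within 1 Mb of another.

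**Figure D4:**
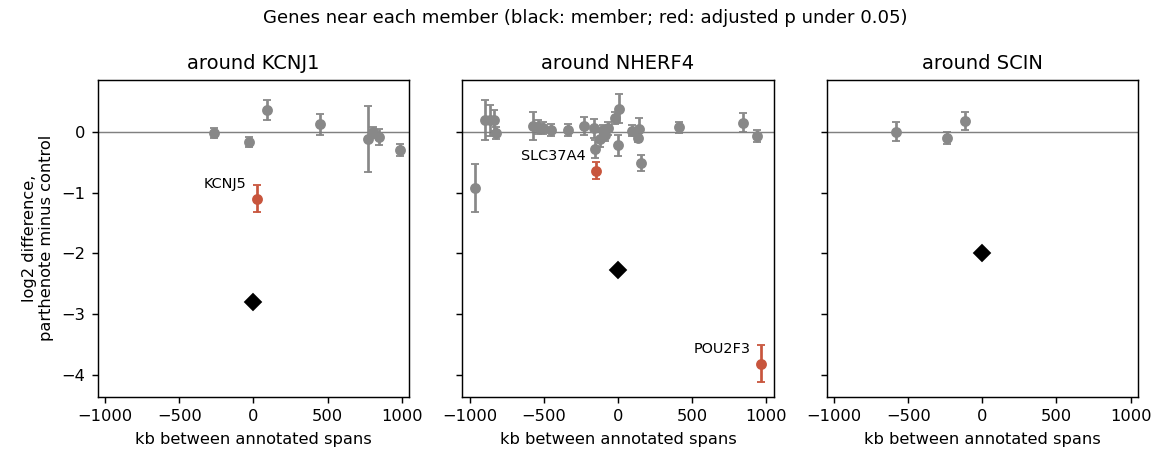
Log2 difference of parthenote minus control (bars, SE) of tested genes reported on within 1 Mb of KCNJ1, NHERF4 and SCIN against the distance in kb between annotated spans, with the central gene as a black diamond and genes at an adjusted p under 0.05 in red. KCNJ5 near KCNJ1 and SLC37A4 and POU2F3 near NHERF4 are red, and none of those near SCIN is.

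The protein relatives of NHERF4 and SCIN were covered thinly. Of 34 genes for PDZ scaffolds, 3 were tested and 0 passed in edgeR's test, in DESeq2 or at an unadjusted p under 0.05. Among all tested genes 5.2% were called by edgeR and 21.7% had an unadjusted p under 0.05. With so few tested genes here, nothing is read from a count of 0. MAGI2, a scaffold of cell junctions, had a log2 difference of 0.10 ± 0.16. DLG2, a synaptic scaffold, had 0.25 ± 0.14, and ARHGEF12, a RhoA exchange factor with a PDZ domain, had 0.01 ± 0.13. None of the 7 other gelsolin family genes of the list was in the table, so SCIN was the only one analysed here. Of 5 tested genes for apical actin structures, 0 passed in edgeR's test and in DESeq2. An unadjusted p under 0.05 was found for 1 of the 5, CDHR3, against 21.7% of all tested genes. RDX, which encodes the membrane-actin linker radixin and was the most abundant, had a log2 difference of 0.03 ± 0.10.

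Markers of other tissues moved in both directions beside the trio. Of 11 tested epithelial genes, 3 fell, POU2F3, ST14 and PLET1, and 0 rose, against 3.59% and 1.61% of all tested genes, and the median was 0.08. ST14 and TMPRSS4 of this list are also counted among the transport regulators above. The summed level of these 11 was 5715 to 6002 CPM in controls and 6047 to 6082 CPM in parthenotes. Most of this sum came from CADM1 and NECTIN1, with control means of 2320 and 1891 CPM, so it does not measure the amount of epithelium. CADM1, the most abundant, had a log2 difference of 0.23 ± 0.09. The call of PLET1, on 1 to 20 reads per library, was lost without control 2 (adjusted p = 0.118), control 3 (0.0746), parthenote 1 (0.0588) or parthenote 3 (0.0797), and without both libraries numbered 1 (0.0533). DESeq2 gave PLET1 no adjusted p and called 2 of the 11.

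Of 13 tested markers of blood, liver, vessel, muscle, nerve, mesenchyme and placenta, PEG10 and PLET1 fell and APOC3 rose. Among all tested genes 3.59% fell and 1.61% rose. PLET1 is also counted on the epithelial list. HBB, the beta-globin gene of red cells, was the only globin gene tested among those of this list reported on. Genes without a symbol were not checked for globins, and only 779 of the 1780 genes have one. HBB was at 873, 1226 and 2065 CPM in controls and 167, 575 and 102 CPM in parthenotes. Its groups did not overlap, and its log2 difference of -2.30 ± 0.78 did not pass (adjusted p = 0.189, edgeR), while DESeq2 called it lower (adjusted p = 0.0426), as did edgeR without parthenote 2 (0.00550). The summed level of the 13 was 112815 to 127449 CPM in controls and 86194 to 103816 CPM in parthenotes, with PEG10 alone at a mean of 30495 CPM in controls and 20.3 CPM in parthenotes. PEG10 is imprinted and expressed from the paternal copy, which parthenotes lack. Without PEG10 the summed level of the other 12 was 87062 to 93371 CPM in controls and 86184 to 103788 CPM in parthenotes. Most of that sum came from COL1A2 and APOA1, with control means of 45264 and 30120 CPM. COL1A2, the most abundant, had a log2 difference of 0.00 ± 0.12. The call of APOC3 (adjusted p = 0.0178, edgeR) was lost without control 1 (0.0609), control 2 (0.0730) or control 3 (0.0567), and held without both libraries numbered 1 (0.0204). The part that the amount of any tissue played in the levels of KCNJ1, NHERF4 and SCIN was not tested.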

How the data were processed

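Whole-embryo RNA from 3 controls and 3 parthenotes was made into libraries with Illumina's TruSeq v2 kit, per the labels' protocols. The kit does not mark strand, so reads of genes that overlap on opposite strands are mixed. HISAT2 2.1.0, SAMtools 1.9 and the build Sscrofa11.1 are named per the submitters' processing notes. Which tool counted the reads is not stated there. Raw read counts per gene, without normalization, stand in the authors' deposited table. Deposited files per sample hold normalized signal values, which are whole reads times a factor of 0.916 to 1.05 per sample. Divided by that factor, 100% of them lie within 0.01 of a whole number. Those numbers are not all the tabulated counts: per library, 177 to 277 of the 1190 genes listed had another value. The test on them called 42 genes.

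Of 1780 genes analysed, 779 have a symbol. RefSeq's Sscrofa11.1 table placed 688, of which 687 are on chromosome 9, and other chromosomes were not analysed here. CPM values are therefore shares of chromosome 9 reads. Genes were filtered with filterByExpr (minimum count 10, minimum total 15). Tests used edgeR 4.0.16 under R 4.3.3, with TMM, a robust quasi-likelihood fit and Benjamini-Hochberg adjustment at a threshold of 0.05. DESeq2 1.42.0, limma-voom (limma 3.58.1), other scalings and filters, libraries left out, and a replicate block were alternatives. The test was also run on counts simulated at the fitted spread of these libraries. The outcome is not given here, and nothing is concluded from it. No replicate pair agreed within sampling noise, with chi-square values per degree of freedom between 6.98 and 143. Same-numbered samples deviated together (correlations of 0.365, 0.272 and 0.147), although control 3 and parthenote 2, of different numbers, gave 0.145. All same-number values were over 0.1, so the numbers were treated as pairs in the blocked alternative, a pairing taken from the data.

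KCNJ1, NHERF4, SCIN and the gene lists were chosen with earlier results of these data known. Genes named are the trio with all libraries, every tested gene of the tubule transport, transport regulator, kidney structure, PDZ scaffold and gelsolin lists, the called and the most abundant gene of other lists, the called and nearest genes within 1 Mb, and the 3 nearest profiles of each. CDHR3 and HBB fall outside these rules and were picked once their values had been seen. Some genes that these rules select are not reported here, and counts over lists and neighbours leave them out, while the fit and the counts over all tested genes keep them.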

Additional observations from a re-analysis of the deposited data

How the results depend on the processing

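Over 16 alternatives, KCNJ1 had log2 differences of -2.94 to -2.71, NHERF4 of -2.57 to -2.14 and SCIN of -2.10 to -1.89, none of them changing sign. The same ranges held over the fits with a library left out, where NHERF4 moved by more than its replicate spread, to -2.57, without parthenote 3. ST14 passed in all 16. The replicate block ended no call of a named gene.

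Over all tested genes, 42 were called, 13 higher and 29 lower. There were 68 in DESeq2 (47 lower), 76 without the libraries numbered 1 of both groups (55 lower), 17 at an adjusted p of 0.01, and 17 to 55 with a library left out (14 to 39 lower). The cause was not tested, other than that the threshold of 0.01 is stricter by construction. Library totals as the only scaling gave 5 higher and 27 lower calls.

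Near KCNJ1, 0 genes were called with library totals as the only scaling, and 2 in DESeq2 or without the libraries numbered 1. Library totals also left 0 potassium channel genes. The replicate block, DESeq2 and the fit without a filter each called 2 transport regulators in place of 1, adding USP2. With a library left out, the counts were 0 to 1 near KCNJ1, 0 to 1 for potassium channels, 1 to 2 near NHERF4, 0 to 1 for tubule transport, 1 to 2 for the kidney lists together and 1 to 4 for markers of other tissues. NHERF4, POU2F3 and PLET1 had 23, 6 and 1 reads in their lowest libraries, which limits the precision of their values.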
